A study of Arabidopsis thaliana with 8 samples.

Results

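A total of 54 probe sets was lower after abscisic acid (ABA) in each of 4 same-numbered pairs of ABA and mock arrays. They were found among 22810 Affymetrix probe sets measured in Arabidopsis thaliana leaves. A probe set is a group of short probes on the array meant to read 1 transcript, though some match several genes. The members were chosen by their response: a mean signal over the 8 arrays of at least 100, and a log2(signal + 10) that was lower in ABA than in mock by at least 0.6 in all 4 pairs of arrays with the same genotype and replicate number. Control probe sets, the expansin gene EXPA8 and genes of the UGT and CYP families were left out. EXPA8 was the 1 probe set that met the thresholds and was left out, with pair differences from -3.53 to -1.85. Of 14363 probe sets with enough signal, 55 met the thresholds (0.383%), against 184 that were higher by at least 0.6 in all 4 pairs (1.28%). The ABA differences below are therefore a description of how the members were chosen, and no test is given for them.

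The arrays compare Columbia wild-type plants (Col-0) with abh1, which lacks normal function of the larger protein of the complex that binds the cap of new RNAs in the nucleus. Plants 4 weeks old received a spray of water (mock) or of 50 µM ABA in water, and green leaf tissue was collected after 4 h. Each genotype with each treatment makes 1 of 4 groups, each with 2 arrays, numbered 1 and 2, and each array carries RNA pooled from 3 biological replicates, so the spread between single plants cannot be seen. In bulk leaf RNA, fewer cells of a type and less of a transcript per cell cannot be told apart. The labels describe the plants as abh1 without naming the allele, and the annotation used here pairs no probe set with the ABH1 gene, so its level was not analysed here. The leaf marker RCA, which activates the carbon-fixing enzyme Rubisco, had signals of 13882 to 20232 and the root marker PYK10 had 19.4 to 82.5; the other 7 leaf and 2 root markers listed, and all markers listed for flower, seed and trichome, were not analysed here, and 1 of 3 guard cell markers, FAMA, had 207 to 377.

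ABA is the hormone that plants make when water is short. It closes stomata, raises genes for protective proteins and slows growth, and in leaves many genes for cell wall remodelling, photosynthesis and protein synthesis are known to be lower when ABA is high. Leaf cells enlarge as wall polymers are cut, modified and cross-linked by secreted enzymes, while chloroplasts depend on nuclear genes for the proteins that splice, modify and translate their own RNA.

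Of the 54 members, 31 have 1 gene in the annotation, 0 have several and 23 are unnamed here, which is 57.4% with 1 gene against 54.7% of all probe sets with enough signal. Only 4 of the 31, TBL45, GH9C2, WNK7 and CAF1, carry a gene symbol, and the other 27 are listed by locus code. Mean signals ran from 104 to 3623 with a median of 499, beside a median of 417 for all probe sets with enough signal. The mean of the 4 pair differences ran from -2.19 to -0.72 with a median of -1.05, where all probe sets had a median of -0.08. As a ratio of mean signals, mock exceeded ABA by 1.65-fold to 4.44-fold, with a median of 2.07-fold. In 35 members the mean difference was at or below -1, and in 9 every pair was at or below -1: TBL45, AT5G55580, AT3G15570 and 6 unnamed probe sets.

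The 4 pairs did not contribute equally, and wild-type pair 2 stood apart. In wild-type pair 1, 24.7% of all probe sets with enough signal were at or below -0.6, against 4.49% in wild-type pair 2, 10.3% in abh1 pair 1 and 17.5% in abh1 pair 2. From mock to ABA the array median went from 155 to 131 in wild-type pair 1 and from 205 to 206 in wild-type pair 2. It went from 160 to 152 in abh1 pair 1 and from 216 to 180 in abh1 pair 2. Whether array scaling bears on these shares was not tested. Wild-type pair 2 gave the weakest difference for 26 of the 54 members, and wild-type pair 1 the strongest for 30. The median member differed by -1.34 in wild-type pair 1, -0.83 in wild-type pair 2, -0.92 in abh1 pair 1 and -1.09 in abh1 pair 2. Across all probe sets the standard deviation (SD) of the differences was 0.749 in wild-type pair 1 and 0.441 in wild-type pair 2, and the log2 signals of the wild-type ABA arrays correlated with each other at 0.919 across probe sets, the lowest of the 4 groups (0.951 to 0.961 in the others).

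Each pair could be read on probe sets chosen without it. The 54 counted each time are the members themselves, and the shares of all probe sets are not matched for signal or spread. The shares therefore describe the pairs and test no response. Of 60 probe sets at or below -0.6 in the other 3 pairs, 54 (90%) were so in wild-type pair 1 too, where 24.7% of all were. For abh1 pair 1 it was 54 of 81 (66.7%, against 10.3%) and for abh1 pair 2 it was 54 of 108 (50%, against 17.5%). For wild-type pair 2 it was 54 of 639 (8.45%, against 4.49%). The median difference of those 639 in wild-type pair 2 was -0.0025, and 50.1% of them were below 0 there, against 52.7% of all probe sets. Leaving out that pair would thus widen the set from 54 to 639, while leaving out any other pair would give 60 to 108. Whether each array of that pair carries the RNA its label names was not tested, and the counts of 54 and 639 depend on it.

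**Figure D1:**
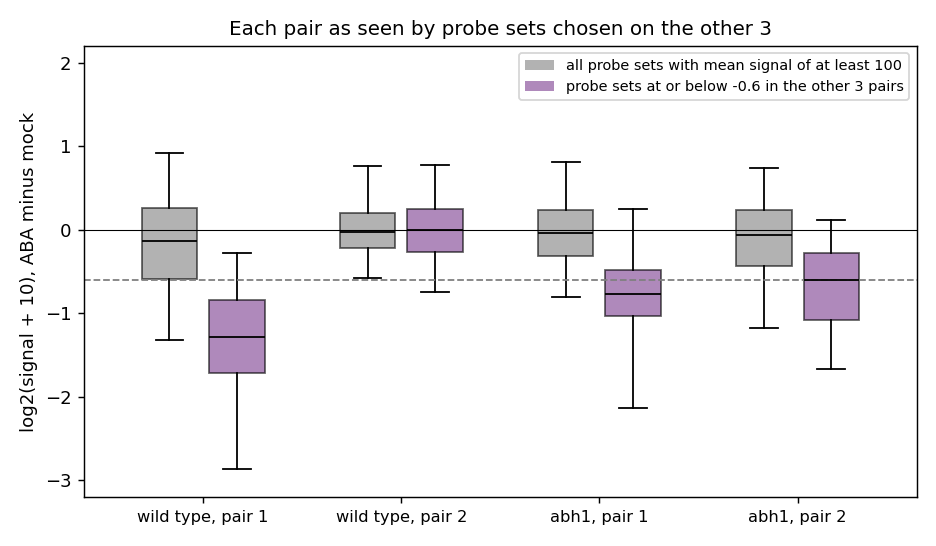
Differences between ABA and mock (vertical axis, log2) in each of the 4 pairs (horizontal axis), for all 14363 probe sets with enough signal (grey) and for those at or below -0.6 in the other 3 pairs (purple; 60, 639, 81 and 108 from left to right). Boxes span the quartiles with the median as a line and whiskers reach the 5th and 95th percentiles; the purple median lies below the grey one in 3 pairs, at -1.29, -0.77 and -0.60, with boxes that overlap in abh1 pair 2, and is level with it in wild-type pair 2.

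Of the named members, 9 are cell wall or secreted proteins, 4 are receptor, kinase or signalling proteins, 7 act in making RNA or protein, and 4 are other enzymes or chaperones. No role is given here for the remaining 7. These groups follow known roles, were drawn up after the members were known, and carry no test.

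AT3G16530 encodes a protein with the sugar-binding domain of legume lectins. Its signals were 2697 and 2201 on the wild-type mock arrays, 715 and 690.1 on the wild-type ABA arrays, 3137 and 2159 in abh1 mock and 943 and 1277 in abh1 ABA. All 4 mock arrays lay above all 4 ABA arrays, and the ABA arrays of wild type were the lowest. The pair differences were -1.90 and -1.66 in wild type and -1.72 and -0.75 in abh1, a mean of -1.51 ± 0.21 (SE). Here and below, the SE of an ABA difference is from a fit of the 4 group means without the replicate number. It does not measure the spread of the 4 pair differences. Mock exceeded ABA 3.49-fold in wild type and 2.39-fold in abh1.

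Among wall enzymes AT5G63180, a pectin lyase-like protein of the family that cuts pectin, had the lowest ABA level relative to mock. Its signals were 1643 and 1550.5 on the wild-type mock arrays, 221 and 773 on the wild-type ABA arrays, 2537 and 2254 in abh1 mock and 444 and 664 in abh1 ABA. Every mock array was above every ABA array, and within each genotype the ABA array numbered 1 was the lower. The pair differences were -2.84 and -0.99 in wild type and -2.49 and -1.75 in abh1 (mean -2.02 ± 0.37 (SE)), and mock exceeded ABA 3.8-fold over all arrays.

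TBL45 belongs to the trichome birefringence-like family, whose members add acetyl groups to wall polysaccharides. Its signals were 808 and 513 on the wild-type mock arrays, 233 and 235 on the wild-type ABA arrays, 571 and 483 in abh1 mock and 171 and 147 in abh1 ABA. The ABA arrays did not overlap the mock arrays and wild-type pair 2 gave the smallest of its pair differences, which were -1.75 and -1.09 in wild type and -1.68 and -1.65 in abh1. The mean was -1.54 ± 0.22 (SE).

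The peroxidase AT2G37130, of the secreted family that oxidises wall components, had signals of 246 and 165 on the wild-type mock arrays, 9.38 and 88.4 on the wild-type ABA arrays, 324 and 294 in abh1 mock and 102 and 152 in abh1 ABA. The value of 9.38 on wild-type ABA replicate 1 was near the 10th percentile of that array (7.95), so the difference of -3.73 in that pair depends on the offset. The other pairs gave -0.83 in wild type and -1.58 and -0.91 in abh1. GH9C2, an endoglucanase that cuts cellulose-like chains, had 777 to 1714 on the 4 mock arrays and 454 to 963 on the 4 ABA arrays, with pair differences of -1.71 to -0.76; its groups overlapped, with abh1 mock replicate 1 below both ABA arrays numbered 2. The subtilase AT5G45650, a protein-cutting enzyme of the secretory route, had 488 to 1237 on the 4 mock arrays and 276 to 629.7 on the 4 ABA arrays and differences of -1.68 to -0.75, and its groups overlapped too.

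The other secreted proteins were closer to the threshold. AT1G22690, of the small gibberellin-regulated (GASA) peptide family, had 997 to 1871 on the 4 mock arrays and 431 to 909.8 on the 4 ABA arrays, with a mean difference of -0.92. AT2G34510, of a plant family found in cell walls, had 588 to 974 on the 4 mock arrays and 242 to 596 on the 4 ABA arrays (mean difference -0.92). AT1G02360, of the chitinase family, had 111 to 272 on the 4 mock arrays and 54.5 to 164 on the 4 ABA arrays (mean difference -0.91), and its groups overlapped, as abh1 replicate 1 was high on both its mock and its ABA array. Over these 9 genes the mean differences ran from -2.02 to -0.91.

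Among receptor and signalling genes AT2G37050, a leucine-rich repeat receptor-like kinase, had the lowest ABA level relative to mock of any named member at the offset of 10. Its signals were 290.5 and 221 on the wild-type mock arrays, 16.4 and 135 on the wild-type ABA arrays, 289 and 335 in abh1 mock and 31.8 and 105 in abh1 ABA. All mock arrays lay above all ABA arrays. The pair differences were -3.51 and -0.67 in wild type and -2.84 and -1.58 in abh1, so the pair numbered 1 gave the larger difference in both genotypes. With an offset of 50 the mean difference of AT2G37050 was -1.57 and that of AT5G63180 was -1.92, so this rank depends on the offset. AT3G17640, another leucine-rich repeat protein, had 245 and 421 on the wild-type mock arrays, 73.9 and 228 on the wild-type ABA arrays, 189 and 388 in abh1 mock and 105 and 11.3 in abh1 ABA. Its mean of -1.87 ± 0.60 (SE) leaned on abh1 ABA replicate 2, which lay below the 10th percentile of its array (12.1), the 1 such value among all members. The other 3 pairs gave -1.60, -0.85 and -0.79.

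AT3G15570 is of the NPH3 family, known from proteins that act with the blue-light receptors that bend plants to light. Its signals were 654 and 1157 on the wild-type mock arrays, 105 and 561 on the wild-type ABA arrays, 361 and 643 in abh1 mock and 129 and 279 in abh1 ABA. The groups overlapped across replicate numbers, since wild-type ABA replicate 2 was above abh1 mock replicate 1, but each ABA array was below its own mock array by 1.03 or more. The mean difference was -1.54 ± 0.53 (SE). WNK7, a kinase of the WNK type that lacks a lysine at the usual place, had 99.6 to 366 on the 4 mock arrays and 51.3 to 155 on the 4 ABA arrays; its differences of -1.33 to -0.68 were larger in both pairs numbered 2, and its groups overlapped.

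**Figure D2:**
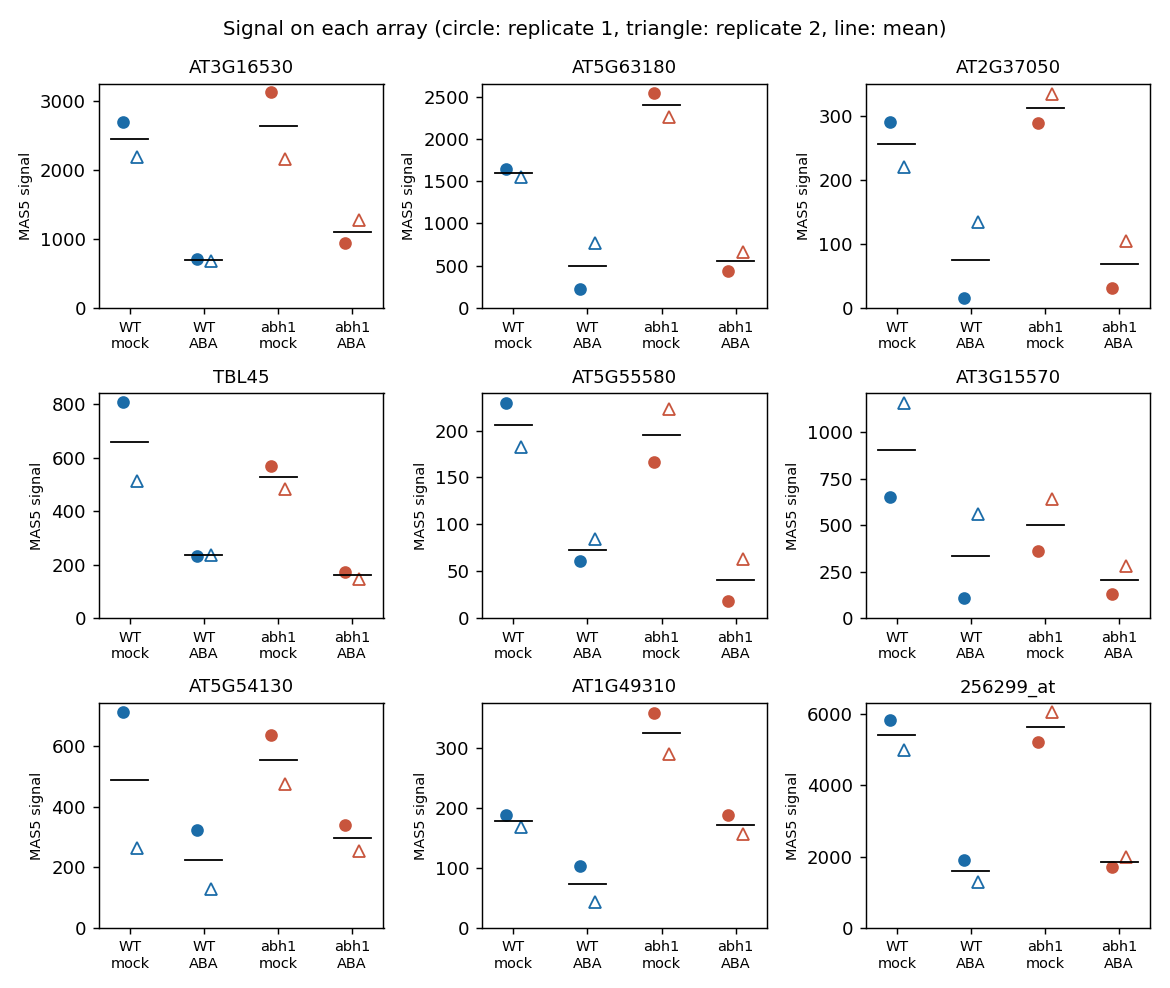
MAS5 signal (vertical axes, linear, starting at 0) of 9 members on the 8 arrays, by group (horizontal axes; WT is wild type). Circles are replicate 1, triangles replicate 2 and lines the mean of both; AT3G16530, AT5G63180, AT2G37050, TBL45, AT5G55580 and the brightest member, which is unnamed, show no overlap between mock and ABA arrays, while AT3G15570, AT5G54130 and AT1G49310 overlap.

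Of the genes that act in making RNA or protein, AT5G55580 encodes mTERF9, of the mitochondrial transcription termination factor family, which in plants also acts in chloroplasts. Its signals were 229 and 183 on the wild-type mock arrays, 60.7 and 84.2 on the wild-type ABA arrays, 166 and 223 in abh1 mock and 18.2 and 63.1 in abh1 ABA. No mock array overlapped an ABA array, and every pair was below -1, at -1.76 and -1.03 in wild type and -2.65 and -1.67 in abh1, with a mean of -1.78 ± 0.39 (SE). CAF1, an RNA-binding protein needed to splice chloroplast introns, had 179.8 to 356 on the 4 mock arrays and 69.8 to 209.9 on the 4 ABA arrays, with pair differences of -1.31 to -0.73 and overlapping groups.

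AT5G55220, a trigger factor-type chaperone that meets new proteins at the ribosome, had 585 to 1293 on the 4 mock arrays and 269 to 654 on the 4 ABA arrays and a mean difference of -1.06. AT3G06980, a DEAD-box type RNA helicase, had 873 to 1794 on the 4 mock arrays and 450.3 to 1128 on the 4 ABA arrays and a mean of -0.98. AT3G13180, of a family that methylates RNA, had 363 to 608 on the 4 mock arrays and 143 to 357 on the 4 ABA arrays and a mean of -0.89. Of these 3 genes, AT3G13180 had no overlap of mock and ABA arrays, and the other two overlapped through the higher values of wild-type ABA replicate 2.

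The DEAD-box helicase AT5G14610 had 136 to 235 on the 4 mock arrays and 32.3 to 126 on the 4 ABA arrays and was near the threshold in wild-type pair 2 (-0.61). AT1G43860, of a family that matures ribosomes in yeast and animals (SBDS), had 289 to 462 on the 4 mock arrays and 149 to 197 on the 4 ABA arrays, with evenly sized differences of -1.19 to -0.82. Over the 7 genes the mean differences ran from -1.78 to -0.89.

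Among other enzymes, AT3G04650 is an oxidoreductase of the flavin-binding type, with 231 and 281 on the wild-type mock arrays, 26.4 and 167 on the wild-type ABA arrays, 206 and 328 in abh1 mock and 114 and 142 in abh1 ABA; wild-type ABA replicate 1 stood lowest and gave a pair difference of -2.72 against -0.72 in the other wild-type pair. AT2G29320, of the short-chain dehydrogenase type related to tropinone reductases, had 967 to 1250.4 on the 4 mock arrays and 461 to 723 on the 4 ABA arrays (mean difference -0.92). AT4G21870, a small heat shock protein, had 204 to 393 on the 4 mock arrays and 116 to 174 on the 4 ABA arrays, and its mean of -0.81 was the weakest of the named members. AT5G54130, a phosphatase-like protein with calcium-binding motifs, had 712 and 265 on the wild-type mock arrays, 323 and 127 on the wild-type ABA arrays, 636 and 476 in abh1 mock and 338 and 253 in abh1 ABA. Its pair differences of -1.12 to -0.89 were alike in size although the arrays numbered 1 were above those numbered 2 in every group.

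The 7 members with a locus code and no role given here were AT1G20070, AT1G49310, AT1G66940, AT1G77655, AT2G36430, AT2G39870 and AT5G59080, with mean differences from -1.18 to -0.85. AT1G77655 had the lowest mean signal of the set, 104, and AT1G20070 the highest of these 7, 1157. Of the 23 unnamed probe sets, with mean differences from -2.19 to -0.72, 1 had the largest mean difference of all 54 members, -2.19 ± 0.45 (SE). Its signals were 1496 and 1507 on the wild-type mock arrays, 135 and 411 on the wild-type ABA arrays, 507 and 926 in abh1 mock and 108 and 345 in abh1 ABA. The brightest member was also unnamed, with 5825 and 4998 on the wild-type mock arrays, 1899 and 1277 on the wild-type ABA arrays, 5207 and 6063 in abh1 mock and 1717 and 1997 in abh1 ABA. Its 4 pair differences were -1.96 to -1.59, and no other member had a weakest pair as low.

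**Figure D3:**
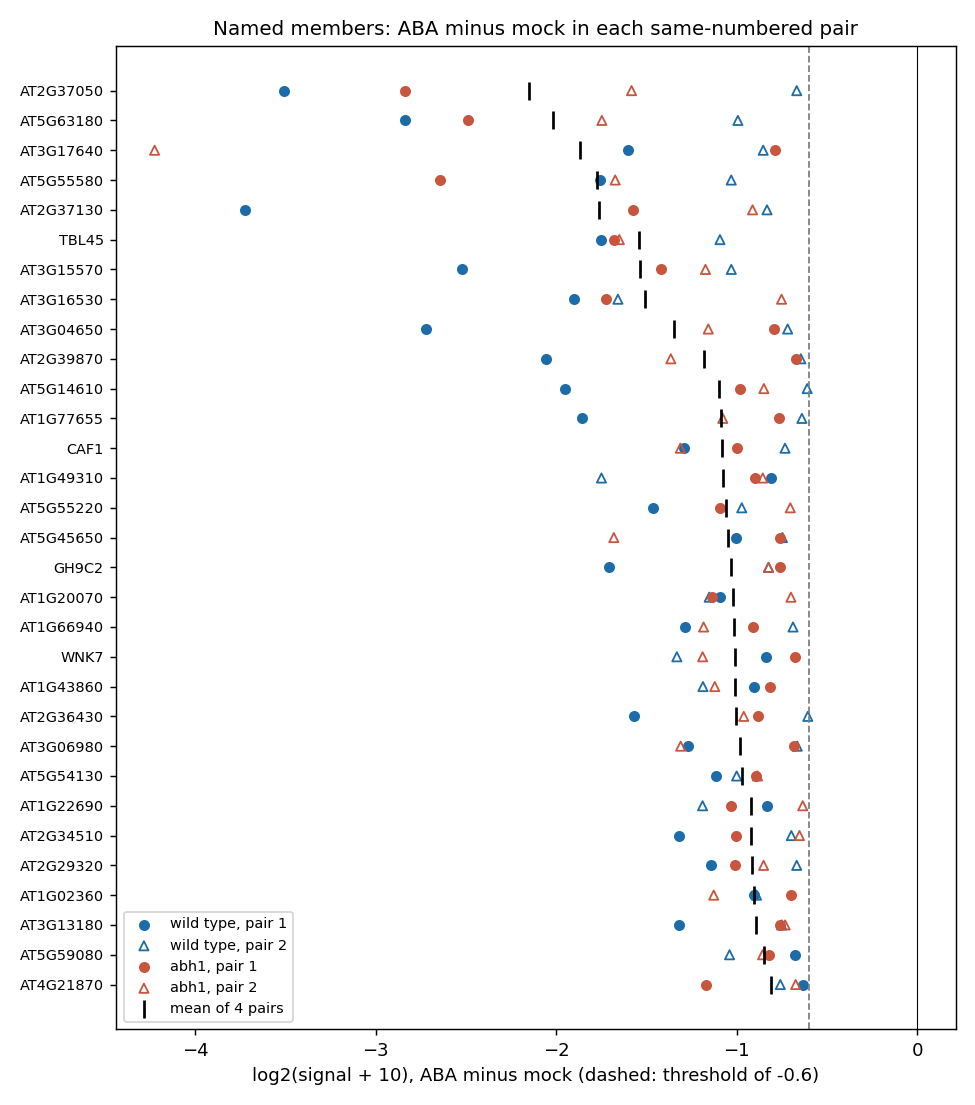
Difference between ABA and mock in log2(signal + 10) (horizontal axis) for the 31 named members (rows), in each same-numbered pair of wild type (blue) and abh1 (red); bars mark the mean of 4 pairs and the dashed line the threshold of -0.6. AT2G37050 heads the list at -2.15, and open blue triangles (wild-type pair 2) are often the points nearest the threshold.

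Around the threshold the weakest pair decided membership. Just inside were AT2G36430 (weakest pair -0.61), AT5G14610 (-0.61), AT1G22690 (-0.63), AT4G21870 (-0.64) and AT1G77655 (-0.64). Just outside among named genes were AT1G30250 (-0.59), AT1G33440 (-0.57), AT3G58610 (-0.56), AT5G62360 (-0.55) and ATSPS4F (-0.55), with wild-type pair 2 the weakest for AT1G33440, AT3G58610 and ATSPS4F. ATSPS4F, a sucrose phosphate synthase, had a mean difference of -2.10 over the 4 pairs, which only AT2G37050 among the named members exceeded in size.

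In 32 members (59.3%) every mock array was above every ABA array, where 2.83% of all probe sets with enough signal had this order; since the rule used this contrast, nothing is read from it. In the other 22 members the groups overlapped, and each ABA array was below its own mock array by the rule. The difference was larger in wild type than in abh1 for 33 members and larger in abh1 for 21. Both wild-type pairs were below both abh1 pairs for 6 members, and both abh1 pairs below both wild-type pairs for 2. The same counts over all probe sets are not given here, and wild-type pair 1 was low across all of them (24.7% at or below -0.6). Nothing is therefore read from these counts. The rule bounds the ABA effect in both genotypes, so the difference between these effects was not tested. That difference (abh1 minus wild type) ran from -1.28 for AT3G17640 to 1.03 for AT2G37130, the members with the low signals near or under the 10th percentile.

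The rule did not use the difference between abh1 and wild type averaged over both treatments, but it used the same 8 arrays, so a single low ABA array can bear on both membership and this difference. No member passed limma's test (0 of 54; the smallest adjusted p was 0.779), where 2 of 14363 probe sets did (0.0139%), and 2 members had an unadjusted p under 0.05 (3.70%, against 4.59% of all). When the fit also held the replicate number, 0 of 54 passed (smallest adjusted p 0.119), where 71 did among all (0.494%; 0.216% higher in abh1 and 0.278% lower), and 15 members had an unadjusted p under 0.05 (27.8%, against 11.2%), 10 of them higher in abh1 and 5 lower. The median difference over the members was 0.03, and 0.02 over all probe sets, with 29 members higher and 25 lower in abh1. Differences of at least 0.5 in size were seen in 13 members (24.1%, against 9.59%), 9 higher in abh1 and 4 lower. Without the replicate number in the fit, the median standard error (SE) was 0.312 for the members and 0.270 for all probe sets. With it, the median SE was 0.193 for the members and 0.185 for all. Whether the choice of members on these same arrays bears on these shares was not tested.

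The smallest p belonged to AT1G49310, which was higher in abh1 than in wild type in all 4 same-number comparisons. Its signals were 187 and 168 on the wild-type mock arrays, 103 and 42.9 on the wild-type ABA arrays, 358 and 289.8 in abh1 mock and 187 and 156 in abh1 ABA. The level in abh1 ABA was thus close to that in wild-type mock. The genotype difference was 1.03 ± 0.30 (SE), 2.04-fold, with limma's adjusted p = 0.779 and 0.119 with the replicate number in the fit.

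AT1G20070 differed by 0.51 ± 0.17 (SE), with 0.48 and 0.33 between mock arrays and 0.44 and 0.78 between ABA arrays (limma's adjusted p = 0.898). AT1G66940 differed by 0.64 ± 0.31 (SE) (limma's adjusted p = 0.181 with the replicate number in the fit, and near 1 without it), and by 0.37 without the wild-type ABA array numbered 1. AT2G37130, the peroxidase, had the largest value, 1.11 ± 0.50 (SE), but leaving out the wild-type ABA array numbered 1 gave 0.52, and leaving out that numbered 2 gave 1.69. TBL45 was lower in abh1 in all 4 comparisons, with a mean of -0.41 ± 0.22 (SE), or -0.25 without wild-type mock replicate 1. AT3G16530 differed by 0.37 ± 0.21 (SE), with 0.22 and -0.03 between mock arrays and 0.39 and 0.88 between ABA arrays, a spread that includes 0; without abh1 mock replicate 1 it was 0.23. The fits with 1 array left out held no replicate number, so these values also hold the difference between arrays numbered 1 and 2. None of these 5 genes passed limma's test. In all, 12 members were higher in abh1 in all 4 same-number comparisons (22.2%, against 10.8% of all probe sets) and 6 were lower in all 4 (11.1%, against 8.69%).

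**Figure D4:**
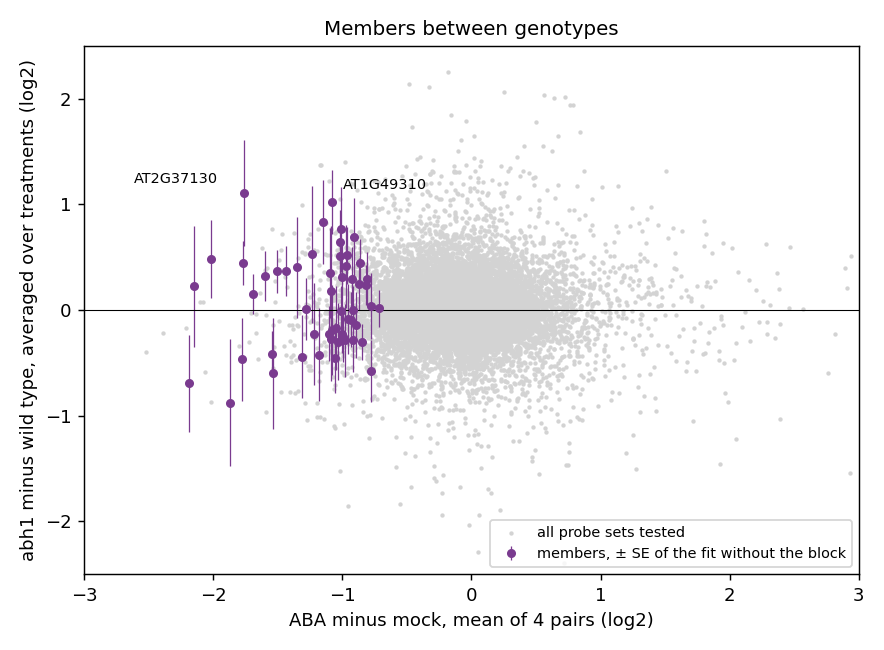
Difference between abh1 and wild type averaged over treatments (vertical axis, log2) against the mean ABA minus mock difference (horizontal axis, log2) for the 54 members (purple, ± SE of the fit without the replicate number) and all probe sets tested (grey; 24 lie outside the axes). The members lie on both sides of 0 on the vertical axis, from -0.88 to 1.11, and 0 of them passed the test.

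Arrays numbered 1 and 2 differed for many members. The rule did not use this difference, but 41 of 54 members had the larger wild-type difference in pair 1, and a low signal on wild-type ABA replicate 1 bears on both. With limma 19 of 54 (35.2%) differed between the numbers, 16 higher and 3 lower on arrays numbered 2, where 3662 of 14363 (25.5%) did, 2481 higher (17.3%) and 1181 lower (8.22%). An unadjusted p under 0.05 was found for 28 members (51.9%, against 44.6%). After median centring of each array the members' split was 5 higher and 9 lower and that of all probe sets 643 and 3724, and after quantile normalization 11 and 5, and 1040 and 1273. These scalings moved the median over all probe sets from 0.20 to -0.21 and 0.01, so the directions below are relative to the authors' scaling. The members' median was 0.43 on that scaling, 0.02 after median centring and 0.31 after quantile normalization.

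AT3G15570 was higher on arrays numbered 2 by 1.25 ± 0.26 (SE; adjusted p = 0.0242) and AT1G77655 by 1.42 ± 0.29 (SE; adjusted p = 0.0234). The subtilase AT5G45650 differed by 0.95 ± 0.18 (SE; adjusted p = 0.0223) and GH9C2 by 0.79 ± 0.20 (SE; adjusted p = 0.0327). The 3 that were lower on arrays numbered 2 were an unnamed probe set at -1.27 ± 0.14 (SE; adjusted p = 0.00768), AT5G54130 at -0.87 ± 0.22 (SE; adjusted p = 0.0313) and AT1G22690 at -0.69 ± 0.15 (SE; adjusted p = 0.0265). The unnamed one had 1377 and 532 on the wild-type mock arrays, 593 and 224 on the wild-type ABA arrays, 1168 and 468 in abh1 mock and 447 and 211 in abh1 ABA, so that its mock signal on arrays numbered 2 was below its ABA signal on wild-type ABA replicate 1 while its pair differences stayed between -1.37 and -1.11. AT3G16530, by contrast, was at -0.11 ± 0.18 (SE; adjusted p = 0.644), which did not pass.

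**Figure D5:**
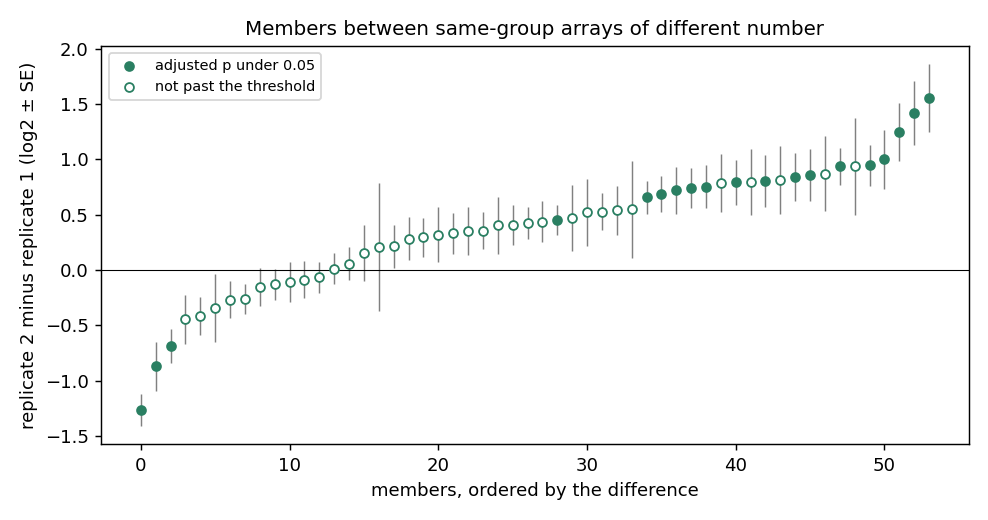
Difference between arrays numbered 2 and 1 averaged over the 4 groups (vertical axis, log2 ± SE of the fit with the replicate number) for the 54 members in order of the difference (horizontal axis). Filled points (19) passed limma's adjusted threshold of 0.05, 16 above 0 and 3 below, on the authors' scaling.

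Of 20 gene groups looked up by symbol or full name in the annotation, none held a member, since 27 of the 31 named members are listed by locus code alone and were not reached by such a search. For arabinogalactan proteins, lipid transfer and GDSL lipases, gibberellin, and nitrogen uptake and reduction, 0 genes were found. The medians of the other groups ran from -0.57 (cytokinin response regulators, 1 gene) to 0.43 (cell wall loosening). In cell wall loosening 13 genes other than EXPA8 were found by this search, which need not be all such genes on the array. The 13 had a median ABA minus mock of 0.43, against -0.08 for all probe sets. Of them 6 were below 0 on average, and 3, EXLA1, EXLB1 and EXPA16, were at least 0.6 higher in all 4 pairs. EXPB3, an expansin that loosens walls, was the lowest of these 13 at -0.65, with -0.41 in its weakest pair. EXPA8, at a mean of -2.39, was lower than all of them, and with it the median of the 14 genes was 0.15. XEG113, a sugar-transferring enzyme and not a loosening one, came in through the name search. The 3 jacalin-type and other lectins found had a median of -0.01, from -0.22 for JAL34 to 0.51 for EULS3. These means hide pairs that went both ways. JAL23 was at 1.35 in wild-type pair 2 and -1.55 in abh1 pair 1, and JAL34 at 0.71 and -1.40. EULS3 was above 0 in all 4 pairs. The 3 light harvesting genes found, LHCB4.1, LHCB4.2 and LHCB4.3, ranged from -0.10 to 0.08. The 3 genes found by the peroxidase search had means below 0, with PRXR1 lowest at -0.55; 1 of them, PRXIIF, is a peroxiredoxin. In abh1 against wild type 0 genes of the 4 groups of cell wall loosening, lectins, light harvesting and peroxidases passed limma's test, with or without the replicate number in the fit.

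By position, 9 of the 31 named members are on chromosome 1, 8 on 2, 6 on 3, 1 on 4 and 7 on 5, by the TAIR10.1 gene table. Of the probe sets with enough signal and 1 gene, 2028, 1151, 1585, 1148 and 1857 are on these chromosomes in the same order. The closest were AT2G37050 and AT2G37130, with 8 protein-coding genes between them. Of those 8, the 2 with enough signal and a name, AT2G37110 and AT2G37120, had mean differences of 0.04 and 0.10. Next were WNK7 and AT1G49310, with 15 genes between them.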

How the data were processed

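Per the series text the authors made the values with Affymetrix software, and the deposited unit is MAS5 signal, linear; settings are not stated there. Each array's 2% trimmed mean was 500.04 to 500.05, so nothing was rescaled. The array medians were not level, from 131 on wild-type ABA replicate 1 to 216 on abh1 mock replicate 2. Non-control probe sets with a mean signal of at least 100 (14363) were used as log2(signal + 10). Limma 3.58.1 (R 4.3.3) was fitted to all 8 arrays with 4 group means and an intensity trend, two-sided, with Benjamini-Hochberg adjustment over all 14363 and a threshold of 0.05. The p-values reflect the spread between arrays alone, possibly technical, and 8 arrays allow only limited precision.

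Same-numbered arrays deviated together from their group means (r of 0.387 to 0.700 across probe sets in all 6 pairs of groups, over the level of 0.1), so the labels' replicate numbers were taken as pairs and also fitted as a block. Simulated data for abh1 against wild type held 14363 probe sets. Without the block, 20 of 100 changes of log2 1 and 56 of 100 changes of log2 2 were found, with 2 false calls. The block gave 47, 82 and 5. The simulated noise was independent between arrays, so without the block it lacked the shared deviations of same-numbered arrays. Those counts therefore need not hold for the real arrays.

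Members and gene groups were chosen with earlier results of these data known. Named were the 30 members with 1 gene and the lowest mean differences, AT3G16530, those with the smallest p between genotypes, and 5 genes on each side of the threshold. The 3 unnamed members described singly, the groups by role, the reading of each pair on probe sets chosen without it and the counts of genes between members were chosen after values were seen. Of 22746 non-control probe sets the platform annotation gave 1 gene for 13513, several for 503 and none for 8730. The gene table (TAIR10.1) has no product names, so product words were searched in its synonyms. No sequence was used here.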

Additional observations from a re-analysis of the deposited data

How the results depend on the processing

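The member count of 54 was 55 with an offset at the 10th percentile of all signals, 37 with an offset of 50, 51 with a filter at the 40th percentile and 81 with no filter. Median centring of each array gave 32 (30 of them among the 54) with 238 raised, so the lowered share of both sets went from 22.7% to 11.9%; quantile normalization gave 51 (39 shared) with 215 raised. The threshold of -0.5 gave 100 and -1 gave 9. Opposite numbering within each genotype gave 32, of which 16 were among the 54. Leaving out 1 array, so that 3 pairs remain and the mean signal is over 7 arrays, gave 60 to 628: 628 without wild-type mock replicate 2, 624 without wild-type ABA replicate 2, 106 without either abh1 array numbered 2 and 82 without abh1 ABA replicate 1.

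For abh1 against wild type the 2 calls over all probe sets became 71 with the replicate block, 1 with no filter, 1 with quantile normalization, 1 with no intensity trend and 0 with median centring, and 0 to 7 when 1 array was left out (0 with either mock array of wild type left out, 1 with any of the 4 of abh1, 2 with wild-type ABA replicate 1 and 7 with wild-type ABA replicate 2). The count of members called was 0 under every alternative, with 1 to 15 at an unadjusted p under 0.05. The members' median difference of 0.03 ran from -0.13 (without wild-type ABA replicate 1) to 0.14 (without wild-type ABA replicate 2), was -0.0040 after median centring and was the same with the block, so its direction rests on the arrays kept and on the scaling. The fits with 1 array left out held no replicate number, so the difference between arrays numbered 1 and 2 enters them. Taken by replicate number, the members' median was 0.16 for arrays numbered 1 and 0.0037 for arrays numbered 2. The 3662 calls between replicate numbers were 1918 with no filter, 2313 with quantile normalization, 4008 with an offset of 50 and 4367 with median centring; the members' 19 were 10 (8 higher, 2 lower), 16, 20 and 14. The cause of these changes was not tested, beyond the fewer samples, other probe sets or other thresholds that the alternatives themselves bring. The ABA minus mock means of named members moved by over 1.5 times for 8 genes without wild-type ABA replicate 1, from -0.96 for AT3G15570 (main value -1.54), -0.78 for AT3G04650 (-1.35), -0.72 for CAF1 (-1.08) and -0.69 for AT2G39870 (-1.18) to -0.53 for AT1G77655 (-1.09), with AT2G34510, AT2G36430 and AT3G13180 at -0.60, -0.63 and -0.58. AT1G77655 was -1.64 without wild-type ABA replicate 2 and -0.72 with an offset of 50, and AT5G54130 was -0.63 without wild-type mock replicate 1. The fits with 1 array left out held no replicate number. The array left in that group was thus set against both arrays of the other treatment. Values with 1 array left out therefore also hold the difference between arrays numbered 1 and 2, which was 1.42 for AT1G77655. That gene's -0.53 was weaker than its weakest pair, -0.64. Signals near an array's 10th percentile limit the differences of AT2G37130 and AT3G17640. The low signal of AT2G37050 on wild-type ABA replicate 1 limits its difference too, which was -2.15 at the offset of 10 and -1.57 with an offset of 50.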
